A study of Homo sapiens with 8 samples.

Results

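Of the 30195 WT origins on chromosomes 1 to 22 and X, 861 (2.85%, 95% Wilson interval 2.67% to 3.05%) were missing only from the list of ORC5KO origins. Such an origin overlaps by at least 1 bp an origin of ORC1KO and an origin of ORC2KO cells, and overlaps no origin of ORC5KO cells. These 861 origins are called the members here. They were chosen by the peak calls of all 4 lines, so their presence or absence in a list is a definition and not a result, and the read counts of the same lines are given as a description, with no test. For comparison, 18250 WT origins had a counterpart in every knockout line, 3756 were missing only in ORC1KO, and 1314 were missing only in ORC2KO cells.

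SNS-seq sequences short nascent strands, the new DNA made where replication has just begun, after size selection and digestion of other DNA with lambda exonuclease. It was applied to HCT116 p53-/- cells (WT), a human colon cancer epithelial line that lacks the tumour suppressor p53, and to ORC1KO, ORC2KO, and ORC5KO cells, in which ORC1, ORC2, or ORC5 was inactivated in the p53-/- background by CRISPR–Cas9. Each of the 4 lines had 2 replicates, and 8 samples were sequenced in all. All 4 lines thus share the loss of p53, each knockout is given as a single line, and no second clone is described for the SNS-seq. The assay reads genomic DNA, so cell type markers and the targeted genes were not checked.

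The origin recognition complex (ORC) binds DNA in the G1 phase of the cell cycle and, with CDC6 and CDT1, loads the MCM helicase, which marks a site as a possible origin. ORC1 to ORC5 form the ring that holds DNA, and ORC5 is one of its ATPase-fold subunits. Human origins have no strict consensus sequence, but they are often found at G-rich stretches, CpG islands, and the starts of active genes.

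Each deposited list holds the hg38 positions of the peaks found in both replicates, without a height. The 3 deposited tables give unnormalized read counts of WT and 1 knockout line in the joined origins of that pair, with the replicates merged. A table holds 1 value per line, and the WT reads are shared by all 3 tables, so no p-value and no spread between replicates can be given. Intervals of single origins cover counting error only, and PCR reads without molecular identifiers are not independent molecules. Between 6416892 and 8523971 reads were counted per line and table, with a median of 110 to 137 reads per origin. Reads were scaled by the summed reads of each line per table, in RPM (reads per 1000000 counted reads), and 1.5-fold was the threshold for calling an origin down or up.

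The motifs below stand for the sequences of the members that the results turn on. Each is the window of 25 bases with the highest G4Hunter score of its origin, a score that rewards runs of G on one strand, read from the hg38 sequence on the G-rich strand from 5′ to 3′. Capitals mark runs of 2 or more G, and not every window shown reaches the usual score limit for a G-quadruplex motif. The windows of SPOCD1 (score 0.8), near ZFHX3 (-1.28), and of CHD5 (1.48) lie below it in absolute score. The first group holds the 5 members with the lowest log2 fold of ORC5KO over WT.
COL23A1 intron, chr5:178495530-178495554, plus strand: tgagatGGGGGagaaGGGtGGGGag
Intergenic beyond SMOC2, chr6:168860877-168860901, plus strand: gatGGGGGaataGGtGGGGcGGGGG
SMOC2 intron, chr6:168669221-168669245, minus strand: GGGGcgtGGGGtgtGGGGGaGGGGG
NHP2 intron, chr5:178152368-178152392, minus strand: GGGattaattGGGGGGtGGGtGGGa
Intergenic, SMOC2 closest, chr6:168839433-168839457, plus strand: GGGGctttctcaGGGGctGGaGGGG
The second group holds the 3 members with the highest log2 fold.
Intergenic, ZFHX3 closest, chr16:73912826-73912850, minus strand: GGcaGGtaGGtaGGtaGGtGGGtGG
GALNT17 intron, chr7:71199610-71199634, minus strand: GGGGtgagtGGGtGGGcGGGtGGat
CHD5 intron, chr1:6149615-6149639, plus strand: aaGGGtaGGagagtGGGtGGatGGG
The third group shows the range among members with ordinary read counts, from the member of lowest GC content (SPOCD1), through those of strongest GC skew (NWD1 and near PITPNM3), to a member at the Wnt target ASCL2.
SPOCD1 intron, chr1:31807435-31807459, plus strand: GGaGGGaaGGGacttttaaataaca
NWD1 intron, chr19:16777362-16777386, plus strand: aGGGGaGGGGaGGGGaaGGGaGGGG
Intergenic, PITPNM3 closest, chr17:6561642-6561666, minus strand: GGaGGGGGaGGGGaGGaGGaagaGG
ASCL2, chr11:2270895-2270919, minus strand: GGGGttaGGGtGGGGGtacGGGaag
The last group holds 4 of the 6 members that share the highest absolute G4Hunter score of the set, 3.52, and shows how dense the runs of G can be at an origin that the ORC5KO list lacks.
Intergenic, PARD3 closest, chr10:34911318-34911342, minus strand: GGGGGGGGcGGGtGGGGGGGGGGGG
GALM intron, chr2:38722031-38722055, minus strand: GGtGGGGGGGGGGGGtGGGGGGGGG
SYT15-AS1, chr10:46597408-46597432, minus strand: GGGGGGGGGttGGGGGGGaGGGGGG
LINC01374, chr10:89888623-89888647, minus strand: GGGGGtaGGGGGGGGtGGGGGGGGG
None of the 4 was down at 1.5-fold in ORC5KO cells, but only 2.67% of all members were, so nothing is read from this count. Their ORC5KO log2 folds were -0.22, -0.16, -0.42, and -0.21 in the order shown. The interval of SYT15-AS1 (-0.76 to -0.08) excluded 0, and those of the other members shown in this group included it.
A window at or above the usual score limit for a G-quadruplex motif was found in 762 members (88.5%) and in 91.1% of all WT origins, so a motif of this kind is the rule in both.

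Most members still had many ORC5KO reads. The median member had 118 WT reads and 136 ORC5KO reads, or 17.2 and 16.0 RPM, and the median log2 fold was -0.10 (95% order-statistic interval -0.12 to -0.09, interquartile range -0.25 to 0.03). The log2 fold was below 0 at 607 members (70.5%), against 62.3% of all WT origins, whose median was -0.06. Only 23 members (2.67%) were down in ORC5KO cells and 6 were up, where 0.680% of all origins of the table were down and 2.08% were up, and 1.03% and 0.546% of those that hold a WT origin. The same peak lists chose the members, so nothing is read from these shares. The Clopper-Pearson interval of the log2 fold lay below 0 at 102 members, above 0 at 25, and included 0 at 734.

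In ORC1KO cells the median log2 fold of the members was -0.0097 (-0.03 to 0.01), with 10 members down and 23 up. The background there was 3.95% down and 7.03% up over all origins of the table, and 5.44% and 1.89% over those that hold a WT origin. In ORC2KO cells it was -0.08 (-0.10 to -0.06), with 7 down and 15 up, where the background was 3.58% down and 4.65% up over all origins and 5.21% and 1.28% over those that hold a WT origin. Of the 23 members down in ORC5KO cells, 21 (91.3%) were down in neither other line. The same held at 153 of the 309 WT origins down in ORC5KO (49.5%), but the rule asks members to be called in both other lines. Among WT origins called in every line, which meet that demand too, it held at 24 of the 30 down in ORC5KO (80.0%). ORC5KO had the lowest of the 3 log2 folds at 359 members (41.7%) and the highest at 186 (21.6%), against 21.7% and 37.7% of all WT origins. ORC5KO was thus the lowest line more often at members than at WT origins as a whole, which is a description, since the rule used the peak calls of these lines. The 3 folds also come from unlike intervals. For ORC5KO the interval was the WT origin alone at all 861 members, with a median width of 531 bp. For ORC1KO and ORC2KO it was joined with the called origin of that line, with medians of 593 and 617 bp. The effect of this difference on the order of the lines was not tested. The plot of log2 folds by line shows the 3 distributions of the members lying close to one another.

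**Figure D1:**
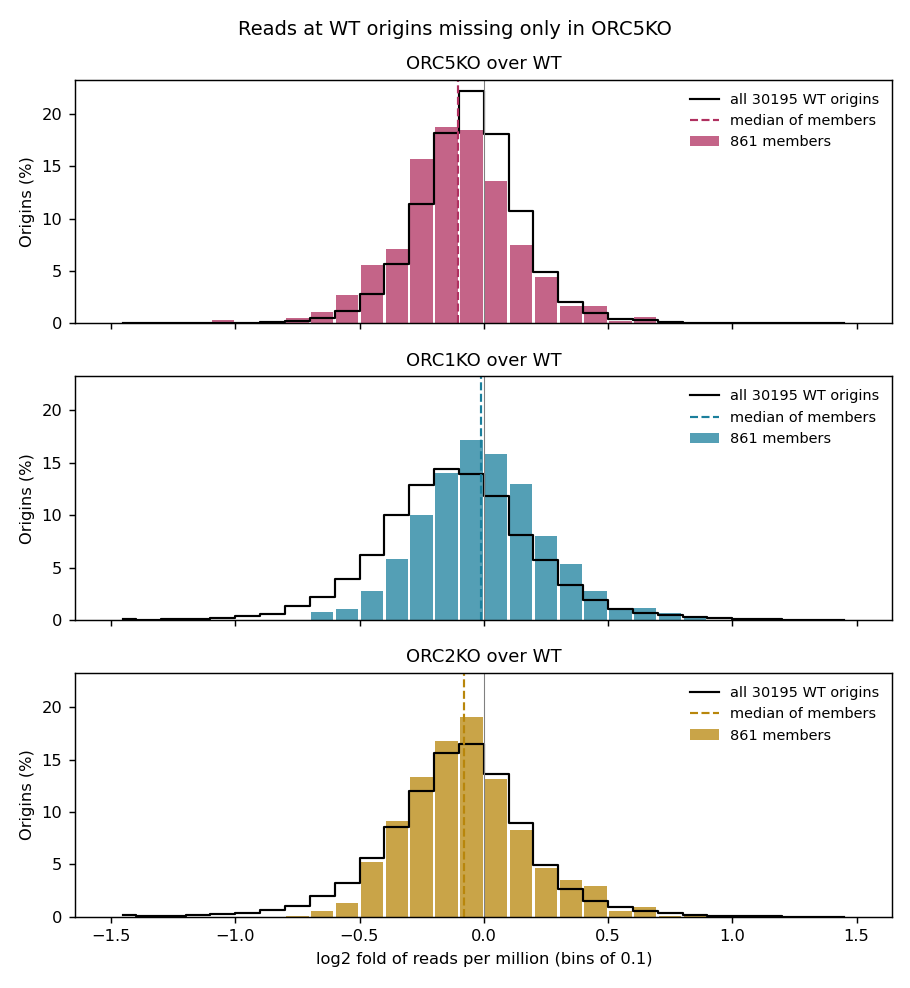
Log2 fold of RPM of each knockout line over WT (x axis, bins of 0.1) against the percent of origins (y axis), for the 861 members (bars) and all 30195 WT origins (black line), with the median of the members dashed. The ORC5KO median of the members is -0.10, against -0.0097 in ORC1KO and -0.08 in ORC2KO cells, and the largest part of each distribution lies within 1.5-fold.

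The other sets had fewer reads in the line where they were missing. The 3756 origins missing only in ORC1KO had a median log2 fold of -0.31 in ORC1KO cells, and 15.5% were down. Over all WT origins the ORC1KO median was -0.12, and 5.43% were down. The 1314 origins missing only in ORC2KO had a median of -0.31 in ORC2KO cells, and 19.9% were down. Over all WT origins the ORC2KO median was -0.10, and 5.18% were down. The members thus had a smaller median change in the line that lacks them than either of these sets. Changes were also smaller in ORC5KO cells over all WT origins, with a median of -0.06 and 1.02% down. The contrast between the sets is therefore in part one between the lines.

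The ORC5KO read density of the members was close to that of called ORC5KO origins and below that of WT origins as a whole. The median member had 260 ORC5KO reads per kb, against 262 in the 41218 intervals of the table that hold a called ORC5KO origin. A member's median percentile among these called intervals was 49.0. At 725 members (84.2%) the density was at or above the 10th percentile of called intervals, 193 reads per kb, and at 425 (49.4%) it was at or above their median. The median percentile was higher over all WT origins (57.4, with 89.5% at or above the 10th percentile) and over WT origins called in every line (70.6, with 96.7%), and lower over those missing only in ORC1KO (42.4) or only in ORC2KO (36.5). The median percentile was lower still (17.03) over the 2466 WT origins called in no knockout line, yet 60.02% of these were at or above the 10th percentile. Reaching the 10th percentile thus does not by itself set called origins apart from others. The word missing describes the deposited list, and the median percentile of the members lay near the middle of the called intervals. A called interval holds the whole ORC5KO origin, while the interval of a member is the WT origin alone. The median interval was 654 bp for WT origins called in every line and 531 bp for members. The effect of this on the density was not tested.

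The deposited lists also differed in spacing. Every list ends sharply at a largest gap between an origin and the closest other origin of the same list, of 26017 bp in WT, 25683 bp in ORC1KO, 21839 bp in ORC2KO, and 20458 bp in ORC5KO cells. No origin of a list stood farther than this from its closest neighbour, and the numbers ended without a tail: the ORC5KO list had 393, 389, and 395 origins in the last 3 bins of 0.5 kb that reach its limit, and none beyond. The ORC5KO list, with the most origins (41328, against 30195 to 37811 in the other lists), had the smallest limit. The study's methods group peaks that lie closer together than the median distance between all peaks, and the sources used here do not say whether the lists were restricted to such groups, and the part of spacing in membership was not tested.

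Of the 861 members, 644 (74.8%, 71.8% to 77.6%) lay farther than 20458 bp from any ORC5KO origin, and 217 lay within that distance. Added alone to the ORC5KO list as deposited, any of these 644 would have had a gap above the largest of that list. At 377 of the 644 the closest other WT origin was also farther than 20458 bp, and at 267 a WT origin lay closer. The share of WT origins that were members was 1.46% where the closest other WT origin lay within 5000 bp (139 of 9519), 1.497% from 5000 to 10000 bp, 2.03% from 10000 to 15000 bp, and 2.57% from 15000 to 20458 bp. It was 34.3% (31.0% to 37.8%) from 20458 to 21839 bp, between the limits of the ORC5KO and ORC2KO lists (254 of 740), and 6.65% from 21839 to 26017 bp (129 of 1939). This window held 2.45% of WT origins and 29.5% of the members. The rule asks for an origin in the ORC2KO list and none in the ORC5KO list, so a high share between their limits follows in part from positions the rule used, and it is given as a description.

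**Figure D2:**
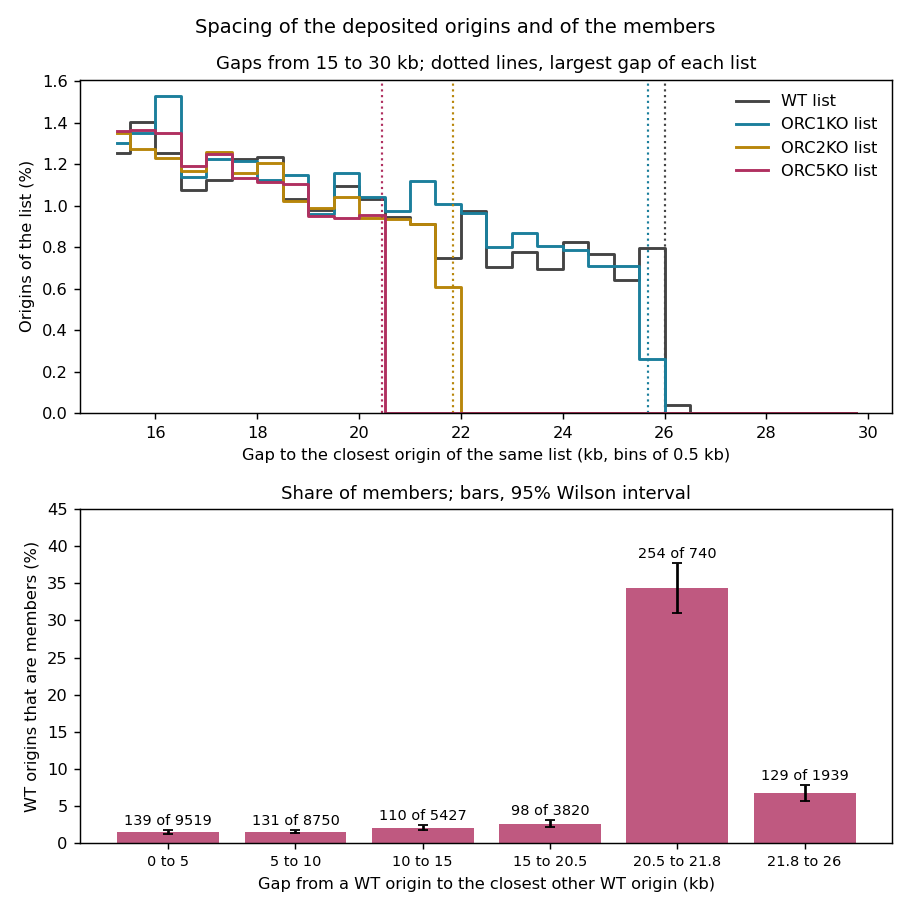
Top, gap from each origin to the closest origin of the same list (x axis, kb, only gaps of 15 to 30 kb) against the percent of the list (y axis), with the largest gap of each list dotted. Bottom, percent of WT origins that are members (y axis, 95% Wilson interval) by the gap to the closest other WT origin (x axis, kb). Each list stops at its own limit, and the share of members is 34.3% between the ORC5KO and ORC2KO limits.

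The 254 members between these limits had nearly the ORC5KO reads that WT had. Their median log2 fold was -0.03 (-0.07 to 0.00057), 143 were below 0, 2 were down, and their median density percentile was 56.9. In the same window, the 163 WT origins called in every line had a median log2 fold of -0.02 and a median percentile of 51.3. Both medians of the members in this window were thus close to those of WT origins that the ORC5KO list holds. The intervals were unlike, since those of the called origins were joined with the ORC5KO origin, and the effect of this was not tested.

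The members on the 2 sides of the limit differed in their reads. The 644 beyond it had a median log2 fold of -0.06 (-0.08 to -0.03), 13 down (2.02%), a median percentile of 58.1, and 572 of them (88.8%) at or above the 10th percentile of called intervals. The 377 whose closest WT origin was also beyond the limit had a median of -0.02 (-0.05 to 0.00057), and 3 were down. The 217 within the limit had a median of -0.25 (-0.28 to -0.22), 10 down (4.61%), and a median percentile of 25.4, and 209 of the 217 were below 0. In ORC1KO cells the 217 had a median of -0.0054 and in ORC2KO cells of -0.15. ORC5KO was the lowest of the 3 lines at 138 of the 217 (63.6%), against 221 of the 644 (34.3%), over the unlike intervals described above. Among the 644 the log2 fold was below 0 at 398 (61.8%), a share near the 62.3% of all WT origins.

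The same count in the other sets gave smaller shares beyond the limit of the missing line. It was 1629 of 3756 (43.4%) for origins missing only in ORC1KO and 849 of 1314 (64.6%) for those missing only in ORC2KO. In these sets the median log2 fold was -0.21 and -0.23 beyond the limit and -0.37 and -0.41 within it. Origins beyond the limit thus had the smaller change in each of the 3 sets, and the part of the spacing in each set was not tested further.

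**Figure D3:**
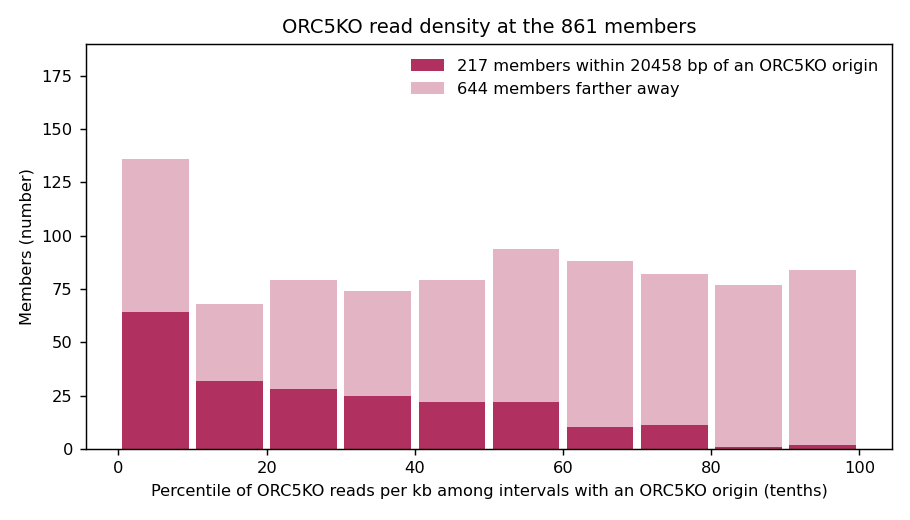
Percentile of the ORC5KO reads per kb of a member among the 41218 intervals with an ORC5KO origin (x axis, 10 equal bins) against the number of members (y axis, stacked), split by distance to the closest ORC5KO origin. The 217 members within 20458 bp are most frequent in the lowest bin (64) and rare in the highest (2), while the 644 farther away spread over the whole range.

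The distance from a member to the closest ORC5KO origin had a median of 24205 bp and ran from 119 to 1828233 bp. Within 500 bp lay 19 members (2.21%), and within 10000 bp lay 140 (16.3%). The 3 members closest to an ORC5KO origin, just inside the rule, lay 119 bp (near THEG), 143 bp (near DHCR7, an enzyme of cholesterol synthesis), and 159 bp (near SHOX, a homeobox gene of bone growth) away. Their log2 folds were -0.11, -0.15, and -0.57, from 209 WT and 240 ORC5KO reads, 68 and 76 reads, and 67 and 56 reads. Just outside the rule, 3 WT origins overlapped an ORC5KO origin by 6 bp (in an intron of DNAH1, an axonemal dynein), 154 bp (near CFAP61), and 202 bp (near POMP), with log2 folds of -0.06, -0.15, and -0.25. On both sides of the rule the reads in the 2 lines were of the same order. The interval of the SHOX member (-1.11 to -0.03) lay below 0. Members were counted over the WT origin alone, and the origins outside the rule over intervals joined with the ORC5KO origin. The 2 sides are therefore not counted alike, and the effect of this was not tested.

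WT origins with few WT reads were members more often. With WT origins ranked by WT reads into 5 equal groups, 4.02% of the lowest group (47 to 95 reads) and 1.66% of the highest (226 to 4269 reads) were members. For the 217 members within the limit this decline was from 1.67% to 0.0331% (2 origins), and for the 644 beyond it from 2.35% to 1.62%. Such a decline was not particular to the members. From the lowest to the highest group, the share missing only in ORC1KO went from 17.3% to 3.48%, and only in ORC2KO from 5.71% to 2.09%. By WT reads per kb the share of members did not fall steadily, with 2.65%, 3.23%, 3.53%, 3.01%, and 1.84% from the lowest group up. Width showed no steady order either: the median member was 531 bp wide (513 to 542 bp), against 525 bp for all WT origins, with a Cliff's delta of 0.0047 against the other WT origins. The 217 within the limit were narrower, with a median of 456 bp, and had a median of 96 WT and 100 ORC5KO reads.

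**Figure D4:**
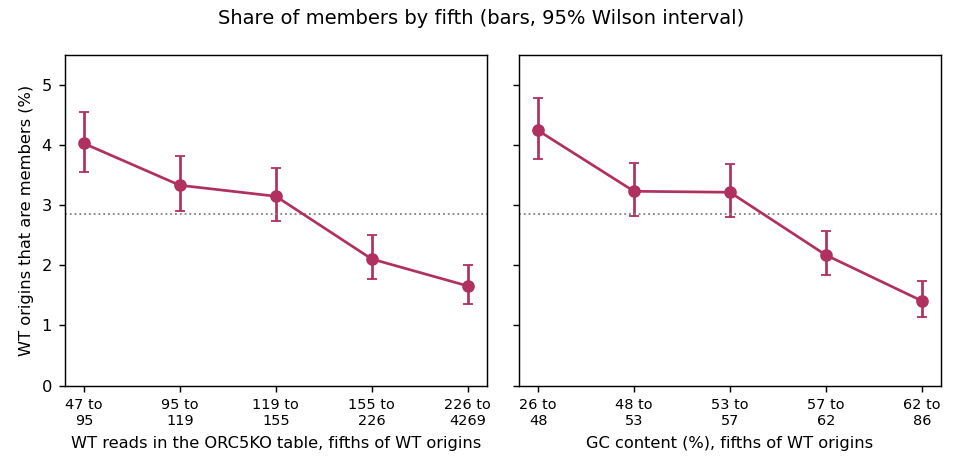
Percent of WT origins that are members (y axis, 95% Wilson interval) in 5 equal groups of WT origins by WT reads in the ORC5KO table (left) and by GC content (right), with the share over all WT origins dotted. The share falls from 4.02% to 1.66% with WT reads and from 4.24% to 1.41% with GC content.

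The members were lower in GC content than WT origins as a whole, as were the origins missing only in ORC2KO. The median of the members was 52.0% (51.2% to 52.8%), against 54.8% for all WT origins, 56.0% for those called in every line, and 51.1% for those missing only in ORC2KO, and Cliff's delta against the other WT origins was -0.20. The share of members was 4.24% in the lowest of 5 equal groups by GC content (25.8% to 47.9%) and 1.41% in the highest (62.2% to 86.2%). Isolated WT origins were also lower in GC content, with a median of 51.4% among the 2679 whose closest WT origin lay beyond 20458 bp and 55.2% among the other 27516. The members in these groups had medians of 52.1% and 52.0%. Among isolated WT origins the median of the members was thus not below that of the group, and the part of GC content in membership was not tested.

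Strand asymmetry was close to that of all WT origins. The absolute GC skew, the excess of G over C or the reverse as a share of both, had a median of 0.363 in members (0.353 to 0.371) and 0.341 in all WT origins, and was 0.288 in origins missing only in ORC1KO. The absolute TA skew had a median of 0.149 against 0.143. The lowest GC content of a member was 30.3%, in an intron of SPOCD1, with 131 WT and 122 ORC5KO reads. The strongest GC skew was 0.98 in an intron of NWD1, with 214 WT and 195 ORC5KO reads, and -0.98 near PITPNM3, with 90 and 84 reads. Their motifs above show the G runs on the plus strand of the first and the minus strand of the second. The log2 folds of these 3 members in ORC5KO cells were -0.41, -0.44, and -0.41, and all 3 lay within the limit. The member of highest GC content (80.6%), near AZIN1, went the other way and lay beyond the limit. It had 103 WT and 162 ORC5KO reads, a log2 fold of 0.34 (-0.02 to 0.71).

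Members lay less often at promoters and CpG islands than WT origins as a whole. A CpG island was overlapped by 93 members (10.8%, 8.90% to 13.1%) and by 16.4% of all WT origins, and 21.9% of the origins missing only in ORC1KO, but by 7.53% of those missing only in ORC2KO. Within 1 kb of the start of a protein-coding gene lay 95 members (11.03%, 9.11% to 13.3%), against 14.2% of WT origins and 8.22% of those missing only in ORC2KO. An exon was overlapped by 98 members (11.4%) against 17.7%, coding sequence by 60 (6.97%) against 11.7%, and a 5′UTR by 49 (5.69%) against 7.80%. Origins missing only in ORC2KO had lower shares than the members at exons (9.51%) and coding sequence (5.86%) as well. A protein-coding gene was overlapped by 478 members (55.5%) against 59.9%, and 282 members (32.8%) lay outside protein-coding and lncRNA genes, against 27.8%. Within the limit the shares were lower still, with 8 of 217 (3.69%) at a CpG island and 13 (5.99%) near a start, against 85 (13.2%) and 82 (12.7%) of the 644 beyond it. Among the 2679 WT origins whose closest WT origin lay beyond 20458 bp, 13.4% were at a CpG island and 13.2% near a start. The 377 members isolated in this way and beyond the limit had 13.5% and 13.8%, so their shares were not lower. Among the other 27516 WT origins the shares were 16.7% and 14.3%, and the other 267 members beyond the limit had 12.7% and 11.2%. The part of spacing in these shares was not tested. Members near starts did not have lower ORC5KO folds than those in introns. The 95 members near a start had a median log2 fold of -0.04 with 1 down, and the 350 in introns had -0.12 with 12 down. The down members in introns include those of COL23A1, NHP2, and SMOC2, on the 2 stretches described below. The 1 down near a start lay on the chromosome 5 stretch too.

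The 5 members with most WT reads had ORC5KO log2 folds from -0.23 to 0.05. The first covers coding sequence of SCN4A, the sodium channel of skeletal muscle, at chr17:63960701-63962239, with 1059 WT and 1149 ORC5KO reads (154 and 135 RPM, log2 fold -0.19, -0.31 to -0.07). The 5′UTR of DEDD, a death effector domain protein, at chr1:161131701-161132715, had 587 WT and 753 ORC5KO reads (85.3 and 88.3 RPM, log2 fold 0.05), and its log2 fold was 0.14 in ORC1KO and 0.25 in ORC2KO cells. An intron of BDH1, an enzyme of ketone body metabolism, had 565 and 727 reads (log2 fold 0.05), and an intron of APBA2 had 598 and 721 (-0.04). The last of the 5, an intergenic origin on chromosome 2, lay 2690948 bp from the closest protein-coding gene. It had 1018 and 1074 reads (148 and 126 RPM, log2 fold -0.23, -0.36 to -0.11), so its interval lay below 0, as did that of SCN4A. All 5 lay farther than 20458 bp from an ORC5KO origin, and their ORC5KO read density was at a percentile of 96.5 or higher among called intervals.

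Near starts, the next members by WT reads were MSI2, an RNA-binding protein of stem cells, with 497 WT and 563 ORC5KO reads, and LMBRD1, a lysosomal protein of cobalamin transport, with 479 and 542. LUZP1 had 477 and 540, and NCOA2, a coactivator of nuclear receptors, had 461 and 523. Each of the 4 had a log2 fold of -0.13 in ORC5KO cells, with an interval that includes 0. In ORC1KO cells the same 4 members had log2 folds of -0.32, -0.20, -0.25, and -0.45, so ORC1KO was the lower of the 2 lines at each.

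The 5 members with the lowest log2 fold, whose motifs open the list above, all lay on 2 stretches of chromosomes 5 and 6. At the COL23A1 intron, in a collagen gene, 90 WT and 43 ORC5KO reads were counted (13.1 and 5.04 RPM), a log2 fold of -1.38 (-1.93 to -0.84), while ORC1KO had 102 reads (0.12) and ORC2KO had 81 (-0.39). At the SMOC2 intron, in a gene of a secreted calcium-binding matrix protein, 306 WT and 178 ORC5KO reads were counted, a log2 fold of -1.09 (-1.37 to -0.82), against -0.13 in ORC1KO and -0.02 in ORC2KO cells. At the NHP2 intron, in a gene of the H/ACA ribonucleoproteins and telomerase, the counts were 157 and 92 (-1.08, -1.47 to -0.70), against -0.32 and -0.12. The other 2 lay beyond SMOC2, with 95 WT and 52 ORC5KO reads (-1.18) and 118 and 71 reads (-1.04). These 5 were chosen for a low ORC5KO fold, so ORC5KO being the lowest line at each is no result.

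After the data were seen, a stretch was defined where the running median of the ORC5KO log2 fold over 7 neighbouring origins that are no members was at or below -0.40. This found chr5:177808426-178844365, with 30 origins of the table (median -0.74) and 7 members among 28 WT origins, and chr6:168391229-168876002, with 18 origins (median -0.82) and 5 members among 18. On chromosome 5 the 7 members ran from -1.38 to -0.40 with a median of -0.89, and the 21 other WT origins from -1.57 to -0.21 with a median of -0.74, so the ranges overlap. On chromosome 6 the 5 members ran from -1.18 to -0.31 with a median of -1.04, and the 13 others from -1.516 to -0.13 with a median of -0.79. Of the WT origins called in every line, 6 of 11 on chromosome 5 and 3 of 7 on chromosome 6 were down. Low folds at origins that are no members follow from the definition of a stretch and are given as a description. In ORC1KO and ORC2KO cells the members of the stretches had medians between -0.13 and -0.02. The 2 stretches held 12 members and 9 of the 23 that were down, and the 849 other members had 14 down (1.65%) and a median of -0.10. No library of unselected genomic DNA was used here, so fewer initiations and fewer copies of the DNA in the ORC5KO line cannot be told apart.

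**Figure D5:**
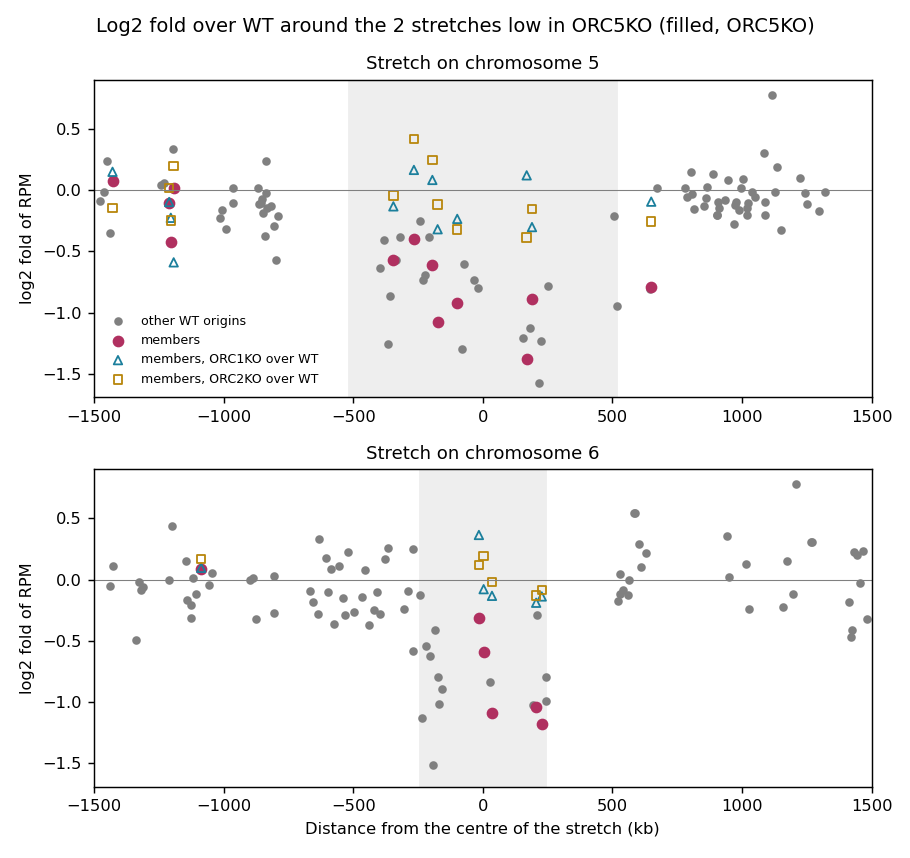
Log2 fold of RPM over WT (y axis) of WT origins by distance from the centre of each stretch (x axis, kb; grey band, the stretch). Filled points are ORC5KO over WT, with members in red, and open triangles and squares are the members in ORC1KO and ORC2KO cells; in both bands the members sit among other WT origins that are also low in ORC5KO.

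Outside these stretches, the start of chromosome 10 held a weaker case. The first block of 5 Mb held 10 members of 104 WT origins, with a median log2 fold of -0.35, and the next held 10 of 54, with -0.40, while the medians of the other WT origins were -0.31 in both. GTPBP4, a nucleolar GTPase of ribosome assembly, had 2 of its 2 WT origins among the members there, with log2 folds of -0.49 and -0.19. The other 14 members that were down included introns of CNNM2 (-0.65), PCYOX1L (-0.64), and CSMD2 (-0.59). The lowest of the 14, at -0.79, lay just beyond the chromosome 5 stretch, at chr5:178975939-178976326.

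The members with the highest log2 fold had more reads in every knockout line than in WT. Near ZFHX3, a homeobox transcription factor, 96 WT and 192 ORC5KO reads gave 0.69 (0.33 to 1.06), with 0.60 in ORC1KO and 0.47 in ORC2KO cells. In an intron of GALNT17, a glycosyltransferase of the mucin-type family, 96 and 191 reads gave 0.68, with 0.77 and 0.75. In an intron of CHD5, a chromatin remodeller, 158 and 311 reads gave 0.67, with 0.65 and 0.62. The last 2 were up past 1.5-fold in all 3 lines, and the first in ORC5KO and ORC1KO only. All 3 lay farther than 20458 bp from an ORC5KO origin and had a density percentile of 89.4 or higher, so the ORC5KO list lacks origins at which ORC5KO reads were above those of WT.

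By chromosome, members made up from 1.15% of WT origins (chromosome 18, 7 of 607) and 1.28% (chromosome 19, 31 of 2422) to 4.003% (chromosome 10, 61 of 1524) and 4.68% (chromosome 13, 25 of 534). They occupied 549 blocks of 1 Mb, of which 329 held 1 member. The block with most, chr5:178000001-179000000, held 7, and 6 blocks tied at 5. Another member lay within 100000 bp of 416 members (48.3%) and within 10000 bp of 96 (11.1%).

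At least 1 member lay in 408 protein-coding genes, and 90 of them held 2 or more. TBC1D22A, a gene of a Rab GTPase-activating protein family, held 4 of its 20 WT origins, with log2 folds from -0.07 to 0.05. CHFR, a mitotic checkpoint ubiquitin ligase, held 3 of 6, from -0.14 to 0.04, and GRAMD1B, a cholesterol transporter, 3 of 6, from -0.37 to -0.02. KCNQ3, a potassium channel of neurons, held 3 of 9, from -0.28 to 0.44. All 3 WT origins of NCOA2 and 3 of 4 of VOPP1 were members, and their log2 folds ran from -0.13 to 0.06 and from -0.16 to 0.09. SHISA9 held 3 of 7, from -0.48 to -0.01. SMOC2, on the chromosome 6 stretch, held 3 of 9, from -1.09 to -0.31, and was the only gene with 3 or more members in which any was down. Among the genes with 2 members, CNNM2, PCYOX1L, and CSMD2 each held one that was down, as given above. In COL23A1, on the chromosome 5 stretch, both members were down (-1.38 and -0.89).

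Lists of genes with a known part in replication, in the colon epithelium, or at fragile sites were counted last. Of 31 genes of origin licensing and initiation, 11 held 16 WT origins, and none of these was a member. Of 25 genes at large common fragile sites, 16 held 82 WT origins, again with no member. As only 2.85% of all WT origins were members, lists of this size would hold few or none, so nothing is read from these counts. Of 40 genes of the Wnt pathway and the colon epithelium, 26 held 76 WT origins, and 2 of these (2.63%) were members, near the 2.85% of all WT origins. The one in ASCL2, a transcription factor of intestinal stem cells, covers its 5′UTR at chr11:2270520-2270964 and had 149 WT and 161 ORC5KO reads (-0.20, -0.53 to 0.13), with 99 ORC1KO reads (-0.65) and 181 ORC2KO reads (0.04). The one in an intron of ZNRF3, a ubiquitin ligase that removes Wnt receptors, had 118 and 138 reads (-0.08, -0.45 to 0.28). Both lay farther than 20458 bp from any ORC5KO origin, and neither was down in ORC5KO cells.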

How the data were processed

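SNS-seq of 4 HCT116 p53-/- lines with 2 replicates each was analysed. Per the submitters' processing notes and the study's methods, the authors trimmed reads with Trim Galore 0.6.4, aligned them to GRCh38 with Bowtie, and called peaks per replicate with MACS2, of which those in both replicates were kept. The deposited tables give counts of reads per origin, with no normalization by the authors and the replicates merged. The counting tool and the handling of duplicate reads are not given in the sources used here. The deposited intervals are positions without heights. No columns of other samples were found.

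The members and the gene lists were chosen with earlier results of these data known. Origins on chromosomes 1 to 22 and X were compared at an overlap of 1 bp. Log2 folds of RPM used all reads of a line in the table, between 6416892 and 8523971, without a pseudocount or a filter on low counts. Shares have 95% Wilson intervals, medians order-statistic intervals, and single origins Clopper-Pearson intervals, and Cliff's delta is a description. Genes came from GENCODE 44. CpG islands were longer than 200 bp with at least 50% GC and an observed over expected CpG above 0.6, and a window of 25 bases with a G4Hunter score of 1.52 or more counted as a G-quadruplex motif.

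Named origins were those with the 5 lowest and 3 highest ORC5KO folds (at least 100 reads in both lines together), the 5 with most WT reads overall and near starts, extremes of GC content and skew, the 3 on either side of the rule, those in listed genes, the blocks with most members, and genes with 2 or more members, of which those with 3 or more are described. Motifs are shown for 4 of the 6 members of highest absolute G4Hunter score outside chromosome 8 (the motifs of the other two are not reported here) and for some of the other named members. CNNM2, PCYOX1L, and CSMD2 were picked from the genes with 2 members after their values were seen. Alternatives covered the overlap, scaling (edgeR TMM factors and median-of-ratios factors), GC content, 5 Mb blocks, filters, thresholds, and definitions of features. Added after seeing the data were members within the largest spacing of the ORC5KO list and members outside the 2 stretches. Core origins, replication timing, and MCM loading were not analysed here. Versions were numba 0.67.0, pysam 0.24.0, matplotlib 3.10.9, scipy 1.17.1, numpy 2.4.6, and pandas 2.3.3 under Python 3.11.15, with edgeR 4.0.16 under R 4.3.3.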

Additional observations from a re-analysis of the deposited data

How the results depend on the processing

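No paired analysis was possible because the tables merge the replicates, and for the same reason leaving out a replicate was not run. Among 90 planned comparisons of a value with an alternative, 63 stayed within the interval or 1.5 times of the value given, 24 moved, and 3 changed sign. The 3 were the median log2 fold of ORC1KO, which became 0.0024 with edgeR TMM factors, 0.0033 with median-of-ratios factors, and 0.038 with reads in origins called in all 4 lines. WT origins at least as wide as the median held 438 members. The ORC5KO median became -0.090 with the median of the 5 Mb block removed and -0.075 at 200 reads or more, where 10 members were down. In ORC5KO cells 5 members were down at 2-fold and 140 at the lowest threshold tried. In ORC1KO cells 6 were down with the GC trend removed, 5 with the block median removed, 0 at 2-fold, and 79 at the lowest threshold. The ORC2KO median became -0.043 with TMM and -0.042 with median-of-ratios factors, -0.054 with the GC trend and -0.047 with the block median removed, and -0.062 at 200 reads or more, where 4 were down, and 0 were down at 2-fold and 123 at the lowest threshold. The absolute GC skew was 0.349 in 500 bp windows, where G-quadruplex motifs were at 85.9%. They were at 97.2% with a G4Hunter score of 1.2, stricter CpG islands at 8.83%, all genes at 67.9%, and midpoints in an exon at 4.07%. The cause of these changes was not tested beyond what each setting itself removes.

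The 217 members within the largest spacing of the ORC5KO list, a subset chosen after seeing the data, differed most. Their median log2 fold was -0.25 in ORC5KO and -0.15 in ORC2KO cells, with 10 down in ORC5KO, 0 in ORC1KO, and 1 in ORC2KO cells. Their median density percentile was 25.4, distance 6907 bp, width 456 bp, GC content 50.8%, and absolute TA skew 0.173. CpG islands were at 3.69%, motifs at 82.0%, starts at 5.99%, and exons at 5.53%. Outside the 2 stretches, 14 members were down in ORC5KO cells. At medians of 118 WT and 136 ORC5KO reads, the counting interval of 734 single members included 0, so most single changes were not detectable at this depth.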
